A study of Mus musculus with 32 samples.

Results

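MPP1 is the most stem-cell-like of the sorted multipotent progenitor subsets of mouse bone marrow, and the comparison described here is of MPP1 cells that carry 1 copy of the Cxcr4 1013 allele (+/1013) with wild-type (WT) MPP1 cells, across all genes. The 6 libraries were chosen by their labels alone: 3 +/1013 and 3 WT MPP1 libraries out of the 32 libraries of the series. All came from C57BL/6 marrow, and per the labels each was made from a sorted pool of 3000 cells by SMART-Seq v4 amplification and Nextera XT tagmentation. The series also holds 2 MPP1 libraries with 2 copies of the allele (1013/1013), which entered the model only through the scaling and the spread. It also holds 9 +/1013 and 9 WT libraries of MPP2, MPP3 and MPP4, which served to ask whether a difference was particular to MPP1. The labels give neither age nor sex nor the number of animals behind a pool, so the p-values measure the spread between these libraries, which may be technical.

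CXCR4 is the receptor for the chemokine CXCL12, which marrow stroma makes and which holds stem and progenitor cells in the marrow. After ligand binding, G protein-coupled receptor kinases phosphorylate the cytoplasmic tail of the receptor, arrestins bind, and the receptor is silenced and taken into the cell. The 1013 allele carries a mutation of WHIM syndrome that cuts the tail short, so that the receptor is desensitised less and signals longer. The stretch at stake lies at the 3′ end of the Cxcr4 coding sequence. The last 60 coding bases of the wild-type gene follow, from the GENCODE M21 transcript, at chr1:128588843-128588902 on the minus strand of GRCm38 (mm10), with the normal stop codon in capitals.
Cxcr4 end of the coding sequence: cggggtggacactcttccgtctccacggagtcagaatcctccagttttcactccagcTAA

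The libraries held 14411262 to 27719931 counts, and 12473 to 15019 genes had at least 5 counts. Levels are given as CPM, the count of a gene relative to the library total after TMM scaling. By Cd48 and Mecom, the sorted identity held in 4 of the 6 libraries and less clearly in the other 2. Cd48, which marks progenitors past the MPP1 stage, had 249 CPM in +/1013 library 1, 19.3 in +/1013 library 2 and 17.03 in +/1013 library 3, against 154, 13.9 and 30.3 CPM in WT libraries 1, 2 and 3. Mecom, a stem cell transcription factor, had 11.6, 43.2 and 47.04 CPM in the +/1013 libraries, against 8.13, 47.4 and 52.1 CPM in the WT libraries. The first library of each genotype thus stood apart from the other two of its group in the same direction, high in Cd48 and low in Mecom. Nkg7, a granule gene of cytotoxic cells, was also at 530 CPM in +/1013 library 1 and 508 in WT library 1, with T and NK cell defining genes such as Cd3e, Cd3d and Zap70 at 0 in all 6 libraries. Spearman correlations across genes were 0.867 to 0.898 between +/1013 library 1 and the other 5. They were 0.898 to 0.919 for WT library 1, and 0.949 to 0.964 among the remaining 4. Of these 4, +/1013 library 3 had the highest Elane and Mpo of all 6 libraries. Elane had 0, 0.906 and 36.5 CPM in +/1013, against 3.23, 0.214 and 0.680 CPM in WT. Mpo had 4.61, 5.05 and 29.2 CPM in +/1013, against 21.3, 8.35 and 5.64 CPM in WT.

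Library 1 of +/1013 also carried antibody transcripts. The immunoglobulin light chain gene Igkc had 379, 0.173 and 0.107 CPM in the +/1013 libraries, against 2.01, 0 and 0.560 CPM in WT, and the joining chain gene Jchain had 798, 0.0863 and 0.465 CPM against 8.87, 2.57 and 0.560 CPM. The heavy chain gene Ighm had 282, 0.0863 and 0 CPM in +/1013, against 4.41, 2.19 and 4.44 CPM in WT. The summed level of the 15 plasma cell genes was 1850 CPM in +/1013 library 1, most of it from Igkc, Jchain and Ighm. The sum was 292 to 394 CPM in the other 2 +/1013 libraries and 318 to 414 CPM in WT. Ighg1 and Ighg2b were at 0 in all 6. Of the 7 plasma cell genes tested, +/1013 library 1 was the highest in 4 and the lowest in 2. The B cell genes Ms4a1 and Pax5 were at 0 in all 6 libraries, but Dntt and Cd79a were highest in +/1013 library 1. Dntt had 17.7, 0 and 0 CPM in +/1013 and 0 in every WT library. Cd79a had 1.56, 0 and 0 CPM in +/1013, against 0, 0.161 and 0 CPM in WT. Igkc had an unadjusted p of 0.0494 with a log2 difference of 7.19 (edgeR, adjusted p = 0.999), and without +/1013 library 1 and WT library 1 that difference was -1.03, so its value rests on 1 library. The Y-linked gene Ddx3y was at 0 in WT libraries 2 and 3: it had 27.2, 44.3 and 45.6 CPM in the +/1013 libraries, against 52.3, 0 and 0 CPM in WT. Xist, which silences 1 X chromosome in females, had 137, 56.8 and 55.9 CPM in +/1013 and 40.6, 147 and 120 CPM in WT, so every library held some. In pools of cells, a different number of cells of a kind and a different amount of RNA per cell cannot be told apart.

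**Figure D1:**
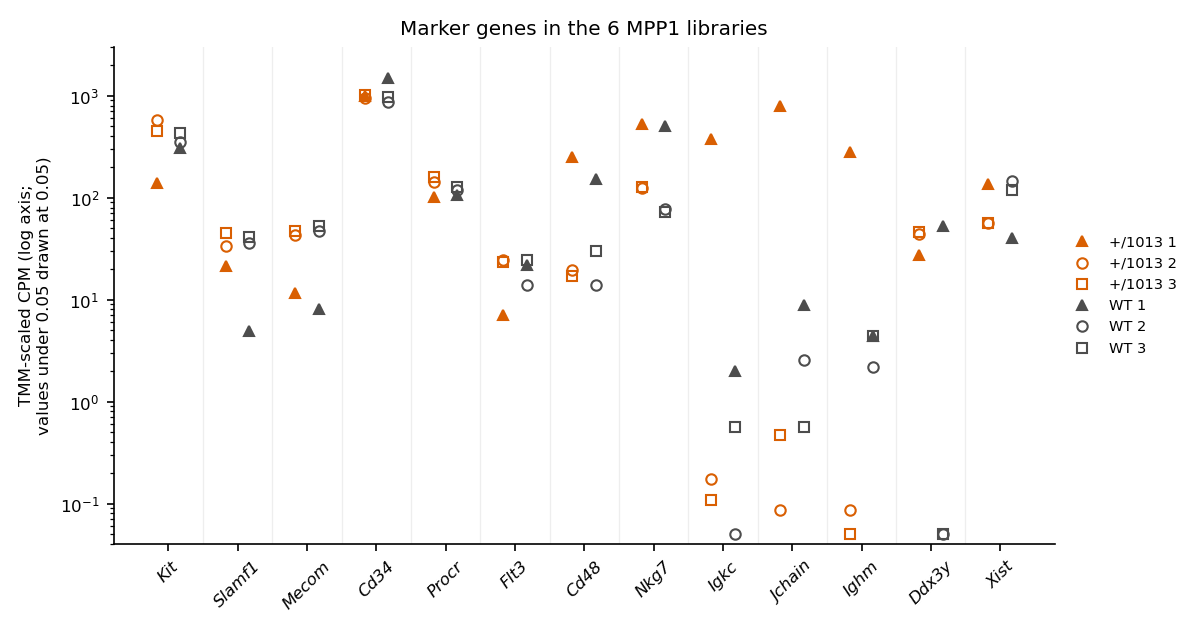
Levels of 13 marker genes in the 6 MPP1 libraries, in TMM-scaled CPM on a log axis, with values under 0.05 drawn at 0.05; orange points are +/1013 and grey points WT, and filled triangles are library 1 of each genotype. The filled triangles separate from the open symbols in Cd48, Nkg7 and Mecom, and in Igkc, Jchain and Ighm the +/1013 triangle alone is above 200 CPM.

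Because of these values, several results below are also given without +/1013 library 1 and WT library 1, which leaves 2 libraries against 2. That alternative was chosen after seeing the data.

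No gene passed the threshold between +/1013 and WT MPP1. Of 13414 genes tested with edgeR's quasi-likelihood test and Benjamini-Hochberg adjustment at 0.05, 0 (0%) were called, and limma-voom also called 0. An unadjusted p under 0.05 was reached by 178 genes (1.33%), 93 higher (0.693%) and 85 lower (0.634%) in +/1013. DESeq2 called 9 of 13351 genes (0.0674%), 5 higher and 4 lower. All 3 +/1013 libraries lay above all 3 WT libraries in 379 genes (2.83%) and below them in 409 (3.05%). For interchangeable libraries, such separation in either direction has a probability of 0.1 in a gene without ties. It was seen in 5.87% of genes. The log2 difference was above 0 in 52.4% of genes, and its median was 0.02.

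**Figure D2:**
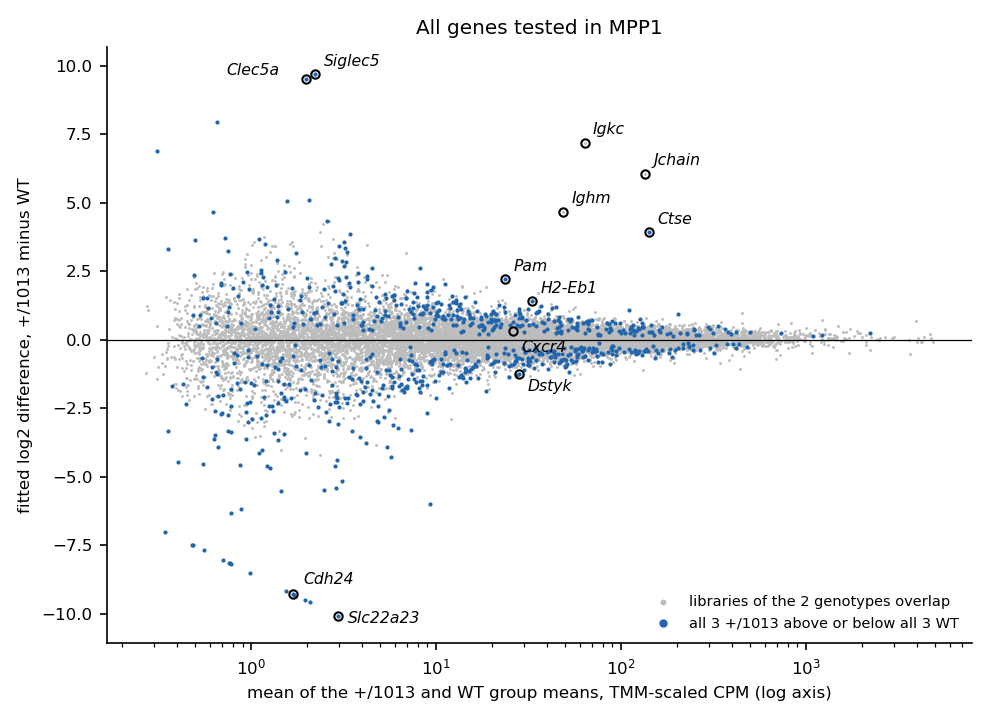
Fitted log2 difference, +/1013 minus WT, against the mean level in CPM (log axis) for the 13414 genes tested in MPP1; blue points are the 788 genes whose +/1013 libraries were all above or all below the WT libraries, and circled genes are named in the text. Ctse stands out among genes of its level at a log2 difference of 3.92, and the points of largest size near 9.69 and -10.1 are genes with all libraries of 1 genotype at 0.

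Cxcr4 itself, which carries the allele, overlapped between the genotypes. It had 30.3, 27.7 and 28.01 CPM in the +/1013 libraries, against 28.5, 23.3 and 17.9 CPM in the WT libraries, and the lowest +/1013 library was just under the highest WT one. The log2 difference was 0.30 (SE 0.33, edgeR adjusted p = 0.999). The tail mutation is not read by a count over the whole gene, so this level does not check the genotype labels. Among the 31 tested genes of the CXCR4 signalling machinery, 16 were above 0, the median log2 difference was 0.00 and none was called. Grk3, a receptor kinase that phosphorylates chemokine receptors, had 11.7, 15.3 and 17.6 CPM in +/1013, against 3.04, 7.44 and 6.56 CPM in WT. All 3 +/1013 libraries were above the WT libraries, with a log2 difference of 1.39 (SE 0.59), an unadjusted p of 0.0458 and an edgeR adjusted p of 0.999.

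The clearest separation was in Ctse, which encodes cathepsin E, an aspartic protease of the endosomal compartment. Ctse had 242, 252 and 306 CPM in the +/1013 libraries, against 7.20, 23.9 and 21.8 CPM in the WT libraries. Every +/1013 library was at least an order of magnitude above every WT library, including both libraries that stood apart. The mean was 267 ± 34.2 CPM in +/1013 and 17.6 ± 9.10 CPM in WT (SD, n = 3 each), a 15.1-fold difference (log2 3.92, SE 0.45). Its unadjusted p was 1.9e-05, the lowest of all genes, and its edgeR adjusted p was 0.256, short of the threshold. It passed in 4 of 18 alternatives, with DESeq2 (adjusted p = 1.1e-17), with a term for the libraries that lack Ddx3y (log2 5.21, edgeR adjusted p = 0.0277, where WT library 1 alone stands for WT), without WT library 1 (log2 3.55, edgeR adjusted p = 0.0224) and without both first libraries (log2 3.60, edgeR adjusted p = 0.0278). Over all 18 the adjusted p ran between 1.1e-17 and 1, and the log2 difference between 3.55 and 5.21. The 1013/1013 libraries had 989 and 749 CPM. In the 32-library fit the +/1013 difference of Ctse was 2.71 in MPP2, 2.47 in MPP3 and 2.79 in MPP4 on the log2 scale. The difference in MPP1 exceeded their mean by 1.24 (SE 0.82, edgeR unadjusted p = 0.143), so edgeR did not show it to be particular to MPP1.

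Ctse is at chr1:131638306-131675505, 3.05 Mb from Cxcr4, so genes near Cxcr4, which may be inherited with the allele, were described as well. Whether linked variants have a part in their values was not tested. Within 10 Mb of Cxcr4, 95 genes were tested. Of these, 47 had a log2 difference above 0, the median was -0.00, and edgeR called none (DESeq2 called Ctse). The genotypes did not overlap in 9 of them (9.47%), against 5.87% of all genes tested. Both shares were below the probability of 0.1 for interchangeable libraries, and an excess near Cxcr4 was not tested. Within 50 Mb, 32 of 424 genes (7.55%) did not overlap, against 18 of the 350 tested genes (5.14%) on the rest of the chromosome. Of these 9 genes, Dstyk, a dual serine/threonine and tyrosine kinase, had the lowest p after Ctse, with 16.7, 14.5 and 18.4 CPM in +/1013, against 50.3, 42.5 and 26.5 CPM in WT. The +/1013 libraries were all lower (log2 -1.27, SE 0.39, unadjusted p = 0.0118, edgeR adjusted p = 0.999), and the 1013/1013 libraries had 6.86 and 11.7 CPM. Ikbke, a kinase of innate immune signalling, had 10.04, 14.6 and 21.1 CPM in +/1013 and 5.73, 7.81 and 4.92 CPM in WT. The tyrosine phosphatase gene Ptpn4 had 31.7, 12.9 and 10.3 CPM in +/1013 and 6.22, 8.402 and 3.40 CPM in WT, a log2 difference of 1.61, and of 0.97 without the first libraries. The receptor-type phosphatase gene Ptprv had 1.64, 7.03 and 3.33 CPM in +/1013 and 0, 0 and 0.320 CPM in WT. The remaining 4 genes without overlap within 10 Mb were Csrp1 and 3110009E18Rik, higher, and Epb41l5 and Ppp1r15b, lower, with unadjusted p of 0.0987 or above.

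**Figure D3:**
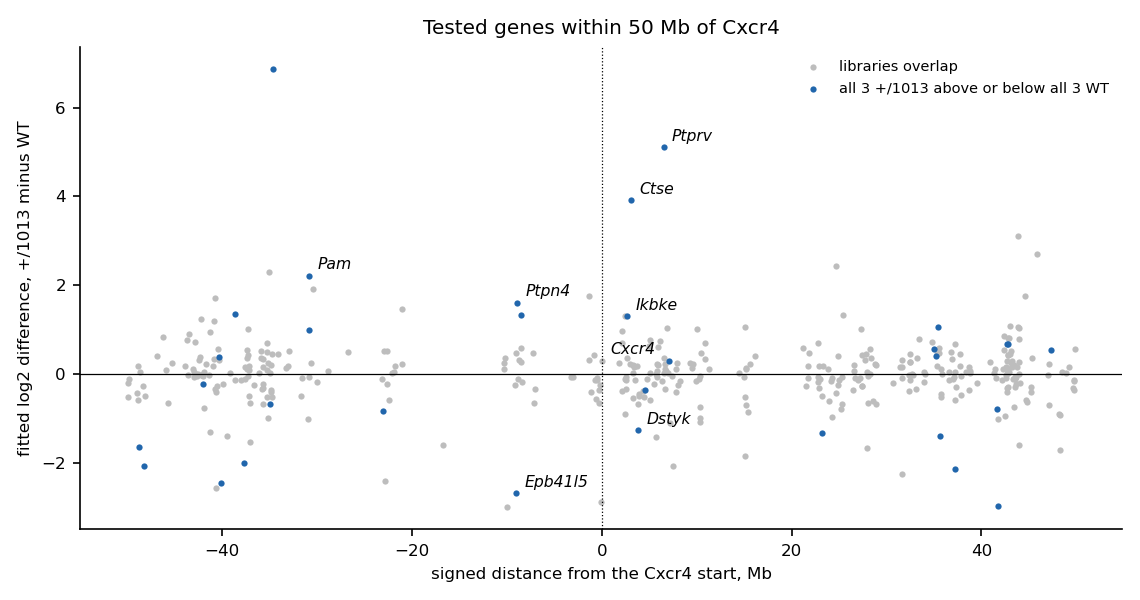
Fitted log2 difference, +/1013 minus WT, of the 424 tested genes within 50 Mb of Cxcr4 against their signed distance from its start in Mb; blue points are genes whose +/1013 and WT libraries did not overlap. Ctse, at 3.05 Mb, has a log2 difference of 3.92, while the median of the genes within 10 Mb is -0.00.

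Pam, which encodes the enzyme that amidates peptide hormones, had the lowest p after Ctse among the 424 tested genes within 50 Mb of Cxcr4. It lies at chr1:97795114-98095646, 30.5 Mb from Cxcr4. Pam had 47.96, 26.3 and 42.4 CPM in the +/1013 libraries, against 7.40, 10.6 and 7.11 CPM in the WT libraries. The lowest +/1013 library was above the highest WT library, and the 1013/1013 libraries had 79.3 and 104 CPM. The fold was 4.64 (log2 2.21, SE 0.35, unadjusted p = 0.000214, edgeR adjusted p = 0.958), and DESeq2 called the gene (adjusted p = 9.0e-06). DESeq2 was the only 1 of 18 alternatives that called Pam, with adjusted p up to 1 in the others.

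MHC class II genes, which present peptides to CD4+ T cells and are expressed at a low level by some stem and progenitor cells, included 3, of the 9 tested in their list, with higher values in every +/1013 library, against 2.83% of all genes. H2-Eb1, a beta chain, had 43.9, 46.5 and 54.2 CPM in +/1013, against 25.9, 14.1 and 14.8 CPM in WT. H2-Aa, an alpha chain, had 174, 154 and 152 CPM in +/1013 and 117, 70.5 and 94.97 CPM in WT. H2-Ab1, the other beta chain, had 172, 182 and 164 CPM in +/1013 and 157, 88.0 and 111 CPM in WT. In these 3 genes no WT library reached any +/1013 library, but none passed the threshold: the log2 differences were 1.40 (SE 0.34), 0.76 (SE 0.22) and 0.54 (SE 0.24), with edgeR adjusted p of 0.999 each. Without the first library of each genotype they were 1.79, 0.87 and 0.79. Cd74, the invariant chain that escorts class II molecules, overlapped between genotypes, with 16.1, 66.5 and 100 CPM in +/1013 and 16.7, 46.1 and 39.4 CPM in WT. Over the 9 tested genes of the MHC class II and dendritic cell list, 6 were above 0 and the median log2 difference was 0.10, against 0.36 without the first libraries. The dendritic cell marker Itgax was at 0 in all 6 libraries.

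The other genes of low p that were higher in all +/1013 libraries belonged to no single list. Cd96, a receptor of the immunoglobulin superfamily known from T and NK cells, had 79.9, 47.2 and 59.7 CPM in +/1013 and 29.7, 20.7 and 30.6 CPM in WT (2.31-fold, log2 1.21, SE 0.30). Cstf3, a subunit of the factor that cleaves pre-mRNA 3′ ends, had 57.3, 48.3 and 53.9 CPM in +/1013 and 29.98, 24.2 and 28.9 CPM in WT (1.92-fold, log2 0.94, SE 0.26). Trp53cor1, the p53-induced noncoding RNA next to Cdkn1a, had 9.07, 6.04 and 2.47 CPM in +/1013 and 0.735, 0.642 and 0.360 CPM in WT. Its neighbour Cdkn1a, which encodes the cell cycle inhibitor p21, was not higher, with 48.2, 18.2 and 30.2 CPM in +/1013 and 109, 95.8 and 32.1 CPM in WT. Siglec5, a sialic acid-binding lectin of leukocytes, had 6.10, 3.58 and 3.65 CPM in +/1013 and 0 in all 3 WT libraries, at least 31.2-fold higher against a floor of 3 counts per library. Clec5a, a C-type lectin receptor of myeloid cells, had 6.92, 2.59 and 2.36 CPM in +/1013 and 0 in all 3 WT libraries, at least 27.8-fold higher against the same floor. Both were low genes, and Clec5a was also at 0 in both 1013/1013 libraries. Zfp51, Nif3l1 and Hivep1 completed the 12 named higher genes, and all edgeR adjusted p among the 12 were 0.256 or above.

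The 12 lower genes of lowest p had low levels in WT, and in 7 of the 12 all 3 +/1013 libraries had no count. Among all 13414 genes tested, 15 had no count in the 3 +/1013 libraries and 4 had none in the 3 WT libraries. The 12 were taken by lowest p among genes without overlap, so 7 of 12 does not describe genes at large. Slc22a23, of the organic ion transporter family, had 0 in the +/1013 libraries, against 1.76, 11.5 and 4.48 CPM in WT, at least 38.5-fold lower against the floor. Cdh24, a cadherin, had 0 in +/1013 and 5.34, 1.44 and 3.28 CPM in WT, at least 21.9-fold lower. Tlr3, the endosomal sensor of double-stranded RNA, had 0 in +/1013 and 5.29, 1.23 and 2.72 CPM in WT, at least 20.1-fold lower. DESeq2 called these 3 genes, while edgeR gave adjusted p of 0.999 for each. None of the 3 was at 0 in the 1013/1013 libraries. These had 1.59 and 4.86 CPM of Slc22a23, 6.97 and 3.48 CPM of Cdh24, and 1.07 and 3.65 CPM of Tlr3. Hdc, the histidine decarboxylase that makes histamine and marks myeloid-biased stem cells in mice, had 0 in +/1013 and 2.79, 1.18 and 0.600 CPM in WT. Car12, a carbonic anhydrase, had 0 in +/1013 and 2.498, 3.43 and 4.28 CPM in WT, and was also at 0 in both 1013/1013 libraries. Erich2 and Atp8a2 were the other two at 0, and Tcf7l1, Shtn1, Cep152 and Dmc1 had no more than 0.286 CPM in any +/1013 library. A count of 0 in a pool of 3000 cells amplified from little RNA limits these genes only to below about 0.107 to 0.223 CPM, the floor of 3 counts, and covers counting error only. With the strand setting unknown, reads of genes that overlap in antisense cannot be assigned with certainty, which touches Cdh24 and Gm17606, Tlr3 and Gm45542, Cstf3 and Tcp11l1, and Dstyk and 6030442K20Rik, and also H2-Eb1 and Gm20513, Slc22a23 and Gm47086, Ikbkg and G6pdx, and others.

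Of predicted genes and pseudogenes, 5 were named apart. Zfp939, Gm5874 and Gm34006 were called by DESeq2 and not by edgeR. Gm5874, a processed pseudogene whose reads may be shared with its parent gene, had 5.28, 5.91 and 5.40 CPM in +/1013 and 0.882, 0.856 and 0.799 CPM in WT. The 3 +/1013 libraries were all above the WT libraries, and the 1013/1013 libraries had 7.66 and 6.99 CPM.

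**Figure D4:**
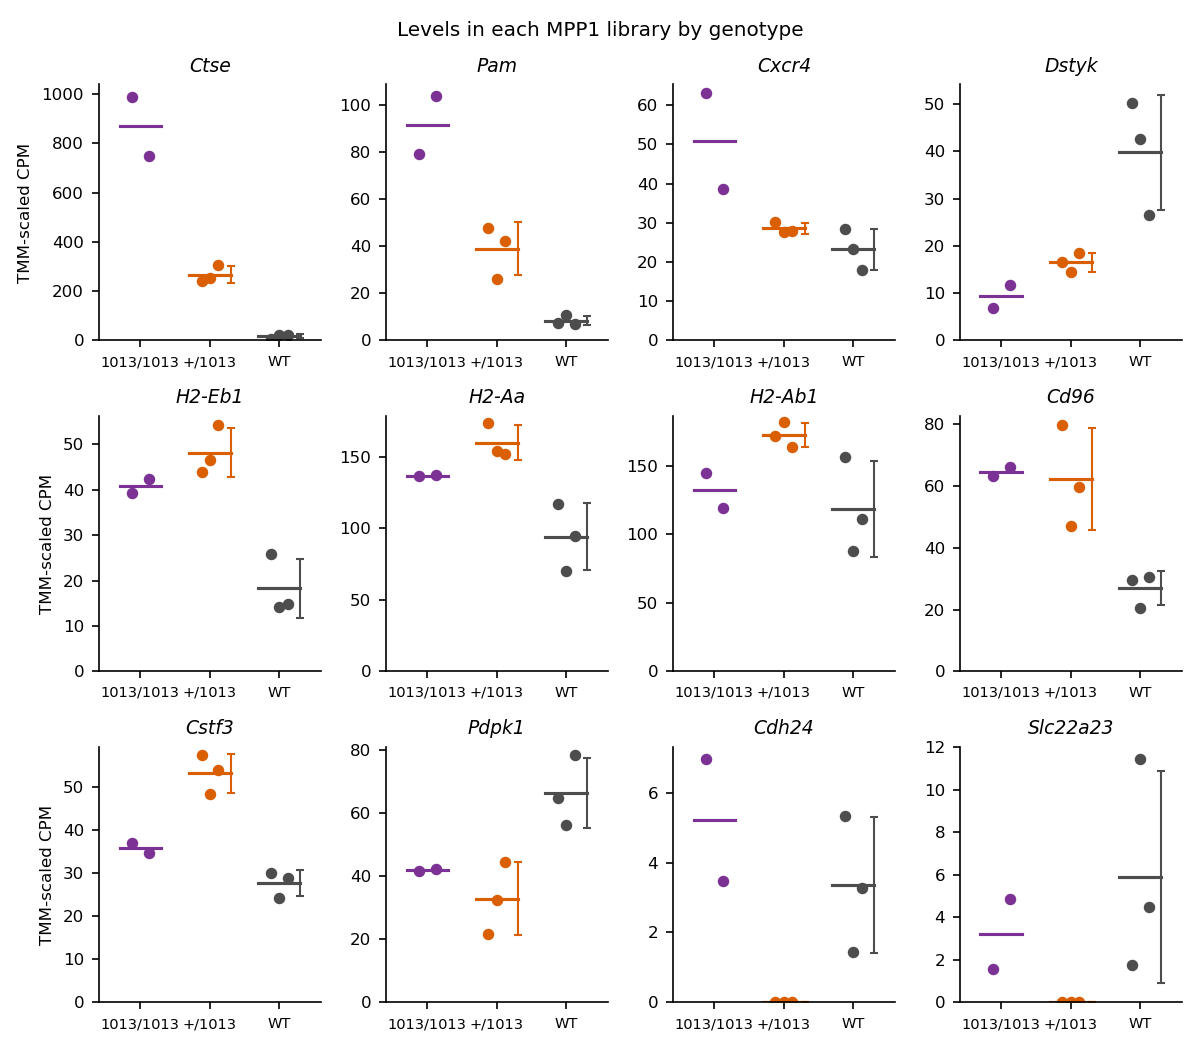
Levels of 12 genes in each MPP1 library, in TMM-scaled CPM from 0, by genotype; points are libraries, bars are means and the whiskers beside the bars are SD (n = 3 for +/1013 and WT, none drawn for the 2 1013/1013 libraries). In every panel but that of Cxcr4 the +/1013 libraries lie wholly above or wholly below the WT libraries. Such separation was part of the rule by which most of these genes were named, and 5.87% of all genes tested had it.

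The title of the series names mTOR and mitochondrial metabolism, and the genes of these pathways showed no difference that passed the test in MPP1. Among 42 tested mTOR pathway components, 18 were above 0, and the median log2 difference was -0.07, against 0.02 over all genes. Pdpk1, the kinase PDK1 that activates AKT, had 21.6, 32.4 and 44.6 CPM in +/1013, against 64.8, 56.3 and 78.2 CPM in WT. All +/1013 libraries were lower (log2 -1.01, SE 0.32, unadjusted p = 0.0137, edgeR adjusted p = 0.999). Prr5, a component of mTOR complex 2, had 11.5, 12.6 and 9.44 CPM in +/1013 and 26.0, 26.2 and 13.6 CPM in WT. Of 35 metabolic genes that mTOR complex 1 induces, 13 were above 0 (median -0.07), of 25 glycolysis genes 9 (median -0.05), and of 21 tricarboxylic acid cycle genes 10 (median -0.01).

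By their list medians, ribosomal and respiratory chain genes leaned towards +/1013, and these medians rested on 1 library. Of the 76 cytosolic ribosomal protein genes, 73 had a log2 difference above 0 (median 0.26), and +/1013 library 1 was the highest of the 6 libraries in 71 of them, against 26.3% of all genes. Their summed level was 34558 CPM in +/1013 library 1, 21784 and 21001 CPM in the other two +/1013 libraries, and 23530, 24269 and 19065 CPM in WT. Without the first library of each genotype, 22 of the 76 were above 0 and the median was -0.05. The nuclear genes of respiratory complex I, which oxidises NADH, had 33 of 36 above 0 (median 0.27) with all libraries, and 22 of 36 (median 0.02) without the first ones. For complexes II to V the counts were 32 of 39 (median 0.20) and 9 of 39 (median -0.08), and for mitochondrial ribosomal proteins 58 of 75 (median 0.16) and 39 of 75 (median 0.00). The mitochondrially encoded genes had 8 of 10 above 0 (median 0.16) with all libraries and 4 of 10 (median -0.15) without the first ones. Their summed level was 8762, 7597 and 5573 CPM in +/1013, against 4386, 4578 and 6553 CPM in WT. By this sum +/1013 library 2, too, was above every WT library, and the 1013/1013 libraries had 10717 and 8496 CPM. The largest single difference among them was in mt-Co1, a core subunit of cytochrome c oxidase, with 5669, 5257 and 3700 CPM in +/1013 and 2428, 2793 and 3865 CPM in WT, where the genotypes overlapped (log2 0.69, and 0.41 without the first libraries). Leaving out +/1013 library 1 alone turned the median below 0 in all 5 of these lists, and leaving out WT library 1 alone kept it above 0 in all 5. The library behind these medians is the one that held antibody transcripts and the highest Cd48. The part of those transcripts' source in the lists' values was not tested.

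**Figure D5:**
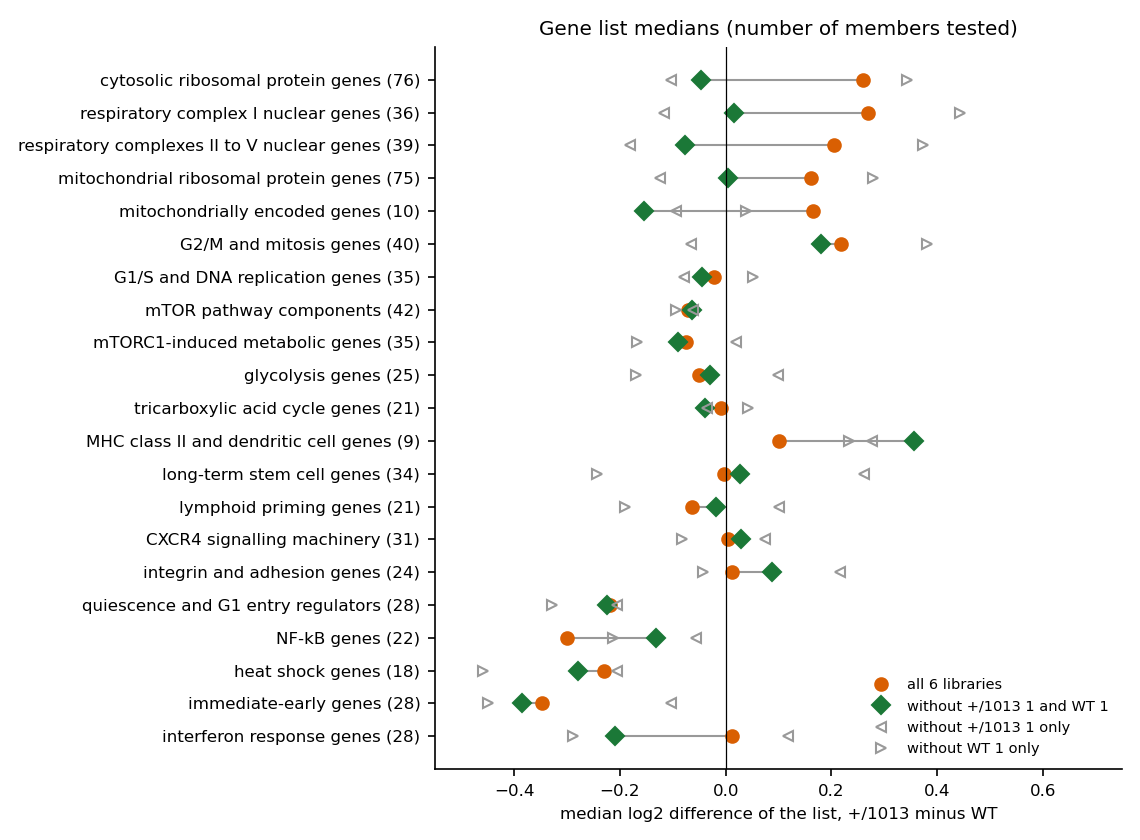
Median log2 difference, +/1013 minus WT, of 21 gene lists with all 6 libraries (orange circles), without the first library of both genotypes (green diamonds), and without either alone (open triangles). The ribosomal and respiratory lists at the top lie between 0.16 and 0.27 with all libraries and between -0.15 and 0.02 without the first ones, while the immediate-early and heat shock lists stay below 0 in all 4.

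No stem cell or lineage gene passed the test. Of 34 long-term stem cell genes 17 were above 0 (median 0.00), and none lay wholly above or below WT. The median was 0.26 without +/1013 library 1 and -0.24 without WT library 1, so the first libraries alone could tip this list either way. Of 21 tested lymphoid priming genes 9 were above 0 (median -0.06). Satb1, a chromatin organiser needed for lymphoid priming, had 0, 2.59 and 1.97 CPM in +/1013, against 2.94, 6.85 and 14.9 CPM in WT (log2 -2.42, SE 1.32, unadjusted p = 0.103, edgeR adjusted p = 0.999). Vpreb1, a surrogate light chain gene of early B cells, had 1.86, 1.21 and 1.22 CPM in +/1013 and 2.99, 2.14 and 2.92 CPM in WT. Il7r, Rag1 and Ccr9 were at 0 in all 6 libraries. Of 24 megakaryocyte genes 13 were above 0 (median 0.01), of 20 granulocyte-monocyte progenitor genes 15 (median 0.21), and of 15 erythroid genes 8 (median 0.02). Without the first libraries these 3 medians were 0.10, 0.14 and -0.01.

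In the cell cycle and stress lists, too, edgeR called no member. Of 28 regulators of quiescence and G1 entry, 8 were above 0 (median -0.22). Foxo3, a transcription factor that keeps stem cells quiescent, had 5.80, 8.93 and 12.6 CPM in +/1013 and 13.4, 16.1 and 22.2 CPM in WT. Ccnd3, which encodes cyclin D3, had 193, 239 and 268 CPM in +/1013 and 302, 298 and 305 CPM in WT. Both lay wholly below WT, with unadjusted p of 0.0855 and 0.0788. Of 40 genes of G2/M and mitosis 28 were above 0 (median 0.22, and 0.18 without the first libraries), but the median was -0.07 without +/1013 library 1 alone. Of 35 genes of G1/S and DNA replication 16 were above 0 (median -0.02). Immediate-early genes, which rise within minutes of handling or growth factor signals, had 5 of 28 above 0 (median -0.35). Heat shock genes had 6 of 18 (median -0.23), and NF-kB genes 5 of 22 (median -0.30). Without the first libraries these 3 medians were -0.39, -0.28 and -0.13. Ikbkg, the regulatory subunit of the kinase that activates NF-kB, had 109, 121 and 136 CPM in +/1013 and 224, 135 and 186 CPM in WT, with an unadjusted p of 0.0339 (log2 -0.57) and overlapping libraries. Without the first libraries its log2 difference was -0.33.

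Whether any difference was particular to MPP1 was tested by the +/1013 difference in MPP1 minus the mean +/1013 difference in MPP2, MPP3 and MPP4, over all 32 libraries. edgeR called 0 of 18676 genes (0%), with 309 (1.65%) at an unadjusted p under 0.05 and a lowest adjusted p of 1. limma-voom called 0 genes, and DESeq2 called 121, of which 47 were higher and 74 lower in MPP1. Siglec5 was at 0 in all 3 WT MPP1 libraries, so the size of its fitted interaction is not reliable. Against the floor of 3 counts, its log2 difference in MPP1 was at least 4.96. Of the genes named above, Siglec5 had an interaction of 9.60 on the log2 scale (SE 3.05), Cstf3 of 1.35 and Pam of 0.41. The edgeR adjusted p was 1 for each, with unadjusted p of 0.00484, 0.0144 and 0.759. By edgeR, no named gene was therefore shown to respond in MPP1 alone. Whether named genes were among the 121 called by DESeq2 was not examined. Flt3, which is high in MPP4, was lower in MPP1 than in MPP4 in both genotypes: on the scale of all 32 libraries Flt3 had 17.2 ± 9.37 CPM in +/1013 MPP1 and 18.8 ± 5.39 CPM in WT MPP1, with 424 ± 179 CPM in +/1013 MPP4 and 454 ± 113 CPM in WT MPP4 (SD, n = 3 each).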

How the data were processed

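The RNA-seq series holds 32 MPP libraries in 12 groups. The deposited table gives counts, called raw per the file headers, for 30644 genes in 32 columns, and another 64 per-sample columns (normalized values) were not used. Gene lengths (median transcript length per the file headers, unit bases) entered no test. The submitters' processing notes name STAR, HTSeq and mm10, and their versions, like the strand setting, are not given in the sources used here.

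Counts of the 8 MPP1 libraries went into edgeR 4.0.16 (R 4.3.3) with a coefficient for each of the 3 genotypes. Genes were kept by filterByExpr on the 6 +/1013 and WT libraries, scaling was TMM, and quasi-likelihood F-tests were adjusted by the Benjamini-Hochberg method at 0.05. Standard errors are the log2 difference over the square root of F. The median dispersion was 0.311 with 5 residual and 3.17 prior degrees of freedom. An earlier report fitted all 12 groups together, where the median dispersion was 1.18, and that fit is an alternative here. DESeq2 1.42.0 and limma-voom (limma 3.58.1) were run beside it. For a genotype with 0 in all libraries, folds were computed against 3 counts in each library. The fits were also run on simulated data with known differences, and how many of those were called is not given here.

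The comparison and the 43 gene lists were chosen with earlier results of these data known. Named genes were Cxcr4, Ctse and up to 12 genes per direction of lowest p with at least 1 CPM in the higher group and no overlap between genotypes, up to 5 predicted genes or pseudogenes, and up to 4 members of a list by lowest p; 1 of the lower genes is not reported here. Cd48, Mecom, Nkg7, Elane, Mpo, Dntt, Cd79a, Flt3 and the genes listed at 0 are markers given as values. Mb distances and windows are gaps between the nearest edges of a gene and Cxcr4. The figure around Cxcr4 instead draws distances from start to start. Of the gene identifiers, 30606 were in GENCODE M21. Alternatives were other size factors, no filter, other sets of libraries, a replicate block, terms for library number and for Ddx3y, and leaving out libraries.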

Additional observations from a re-analysis of the deposited data

How the results depend on the processing

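The count of genes past the threshold was 0 in the main comparison and remained 0 with RLE size factors, no filter, the fit of all 12 groups, the 6 compared libraries only, limma-voom, the robust fit, the replicate block and both library number alternatives. It was 9 with DESeq2, 1 with the Ddx3y term and 1 without +/1013 library 1 and WT library 1 (Ctse in both). Leaving out 1 library at a time gave 0 to 3. The 3 came without WT library 1 and were Ctse, Ddx3y and Eif2s3y, of which Ddx3y and Eif2s3y are on the Y chromosome. The interaction count was 0 in its alternatives except DESeq2, which gave 121, and was 0 to 0 over the libraries left out. Deviations of same-numbered libraries from their group means correlated at 0.373, 0.0814 and 0.201. Libraries of unlike number were not compared, so these values do not decide whether the numbers pair the libraries. The main comparison used no pairing, and the replicate block called 0 genes.

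Of 66 named genes, the difference changed sign in 5. Without +/1013 library 1, Igkc was -2.58, Jchain -3.82, Ighm -6.32, Uqcrb -0.018 and Ndufa1 -0.10. Without both first libraries, Igkc was -1.03, Jchain -2.47, Ighm -6.19 and Ndufa1 -0.0042. With limma-voom, Jchain was -0.47 and Ighm -3.16. In these genes 1 library, +/1013 library 1, carries the value, and over the libraries left out the highest values were 8.69 for Igkc, 7.44 for Jchain, 5.26 for Ighm, 1.12 for Uqcrb and 0.83 for Ndufa1. The Ddx3y term moved the median of all genes to 0.12, from which its differences are read, and it leaves WT library 1 as the only WT library with the transcript.

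With 3 libraries a genotype, of which 1 in each stood apart, and from 14411262 counts, differences under the spread of these pools were not detectable. Ddx3y transcripts were in 3 of 3 +/1013 libraries and 1 of 3 WT, so sex and genotype can be only partly told apart.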

Other observations

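The 4 tested hemoglobin genes were all below 0, with a median log2 difference of -0.77 (-0.59 without the first libraries) and none called. Hbb-bs, an adult beta globin, had 10.6, 20.5 and 12.0 CPM in +/1013 and 43.2, 16.9 and 26.0 CPM in WT, so the genotypes overlapped (log2 -0.9999, and -0.42 without the first libraries). Of 12 tested imprinted growth-control genes 4 were above 0 (median -0.40, and -0.23 without the first libraries), and +/1013 library 1 was the lowest of the 6 libraries in 8 of them. Of 28 interferon response genes 14 were above 0 (median 0.01), against 7 of 28 (median -0.21) without the first libraries.

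Of 22 tested myeloid and growth cytokine receptors 16 were above 0 (median 0.16). Il1r1, the receptor for interleukin-1, lay wholly below WT with 4.02, 6.56 and 10.1 CPM in +/1013 and 12.8, 10.3 and 12.8 CPM in WT (log2 -0.80, and -0.49 without the first libraries). Of 24 integrin and adhesion genes 13 were above 0 (median 0.01), and Itgav, the alpha V integrin, had 22.9, 24.99 and 29.7 CPM in +/1013 and 11.7, 19.5 and 16.3 CPM in WT. Pdgfrb, a receptor of stromal cells, had 13.3, 14.9 and 9.09 CPM in +/1013 and 4.51, 2.68 and 1.76 CPM in WT (log2 2.06, SE 0.62, unadjusted p = 0.00984, edgeR adjusted p = 0.999). The summed level of its list of 15 marrow stroma and endothelium genes overlapped, with 275, 373 and 495 CPM in +/1013 and 239, 366 and 504 CPM in WT, and Lepr, Col3a1 and Sp7 were at 0 in all 6 libraries. Of 32 tested lysosome and cathepsin genes 20 were above 0 (median 0.04), and Ctsw, a cathepsin of cytotoxic lymphocytes, had 21.8, 25.1 and 24.6 CPM in +/1013 and 19.4, 18.7 and 13.5 CPM in WT.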
